A study of Sus scrofa with 14 samples.

Results

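Mitochondrial respiration and fatty acid oxidation were followed through 35 genes, out of 2389 genes that could be named on the arrays. The members were chosen by symbol alone: genes named through the RefSeq accession of their probe, with a pig symbol beginning NDUF, SDH, UQCR, COX and a digit, ATP5, ACAD, HADH, CPT1, CPT2, IDH, MDH or UCP. They comprised 4 genes of complex I, 2 of complex II, 2 of complex III, 9 of complex IV, 6 of ATP synthase (complex V), 7 of fatty acid oxidation, 3 dehydrogenases of the tricarboxylic acid (TCA) cycle and its shuttle, and 2 uncoupling proteins. Where a gene had several probes, the brightest by mean log2 signal over all 14 arrays stood for it. NDUFA4 carries a complex I symbol but is counted here with complex IV, where its product is now placed.

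Mitochondria oxidise fatty acids and the products of glucose to carbon dioxide, and pass the electrons through complexes I to IV to oxygen. The proton gradient made on the way drives ATP synthase, and uncoupling proteins let part of that gradient leak back. The meniscus is a poorly vascularised fibrocartilage whose cells, like those of articular cartilage, are thought to draw much of their ATP from glycolysis, and altered mitochondrial function in cartilage cells has been described in osteoarthritis.

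Total RNA of the meniscus was measured with single-colour Agilent arrays in male Wuzhishan pigs aged 6 to 7 months. The 7 pigs of the osteoarthritis (OA) group had an operation on their anterior cruciate ligament and the 7 pigs of the sham group a sham operation, and tissue was taken 24 weeks later. All animals therefore had an operation, and each array was taken as a separate animal because the submitters describe 14 pigs assigned at random. The 5 named genes of a list of meniscus cell markers, among them ACAN, which encodes aggrecan, and DCN, which encodes decorin, were well above background on all 14 arrays.

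Values are log2 of the processed signal minus the 75th percentile of the same array, so 0 is a signal equal to that percentile. They compare one probe between arrays and do not rank genes against each other. The raw 75th percentile ran from 417 to 618 on the sham arrays and from 156 to 491 on the OA arrays, and 89.7% to 95.2% of probes were well above background on sham arrays against 67.9% to 89.3% on OA arrays. Shared scan times in the file headers give 5 slides: the sham arrays lie on slides 1 and 2, and the OA arrays on slides 3 (OA 1), 4 (OA 2 to OA 5) and 5 (OA 6 and OA 7). Neither a slide nor a scan day was shared by the groups, so slide and group cannot be told apart. In whole tissue, fewer cells of a type and less RNA per cell cannot be told apart either.

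No gene of respiration or fatty acid oxidation passed the test between OA and sham. All 35 were tested, 34 of them well above background on every array. With limma and Benjamini-Hochberg adjustment over 38818 probes at a threshold of 0.05, 0 of 35 were higher in OA, against 67 of 2258 named genes tested (2.97%), and 0 of 35 were lower, against 6 (0.266%). Few named genes as bright as these passed: of 539 between the members' lower quartile and their highest signal, 4 were higher and 1 was lower. Of all probes, 1450 passed in either direction (3.74%). Only the carnitine palmitoyltransferase gene CPT1B had an unadjusted p under 0.05, among 346 named genes that did. The sham and OA ranges overlapped for every member. They were separate for 43 named genes (1.9%) and for 672 probes (1.73%). At the shares of named genes given here, 35 genes are too few for a count of 0 to set them apart.

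The differences were small. The median log2 difference, OA minus sham, was 0.07 over the 35 genes, with 21 above 0 and 14 below, and 0 over all named genes. The median size was 0.14, against 0.25 for all named genes and 0.19 for those of the members' signal range. The 95% interval stayed within 2-fold in either direction for 32 of the 35 (91.4%), against 70.5% of named genes, and within 1.5-fold for 14 (40%), against 22%. CPT1A, IDH2 and UCP3 were the 3 whose intervals reached past 2-fold. The members are bright, with a median signal of 3730 against 203 for named genes. Among the 539 named genes of the same signal range, the median difference was 0.09 and 62.9% lay above 0. Of their intervals, 80.1% stayed within 2-fold and 31.4% within 1.5-fold. The sign of the members' median depended on single arrays, as it was -0.04 without OA 4 and -0.02 without sham 4, and 0 of 35 genes passed without either array too.

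**Figure D1:**
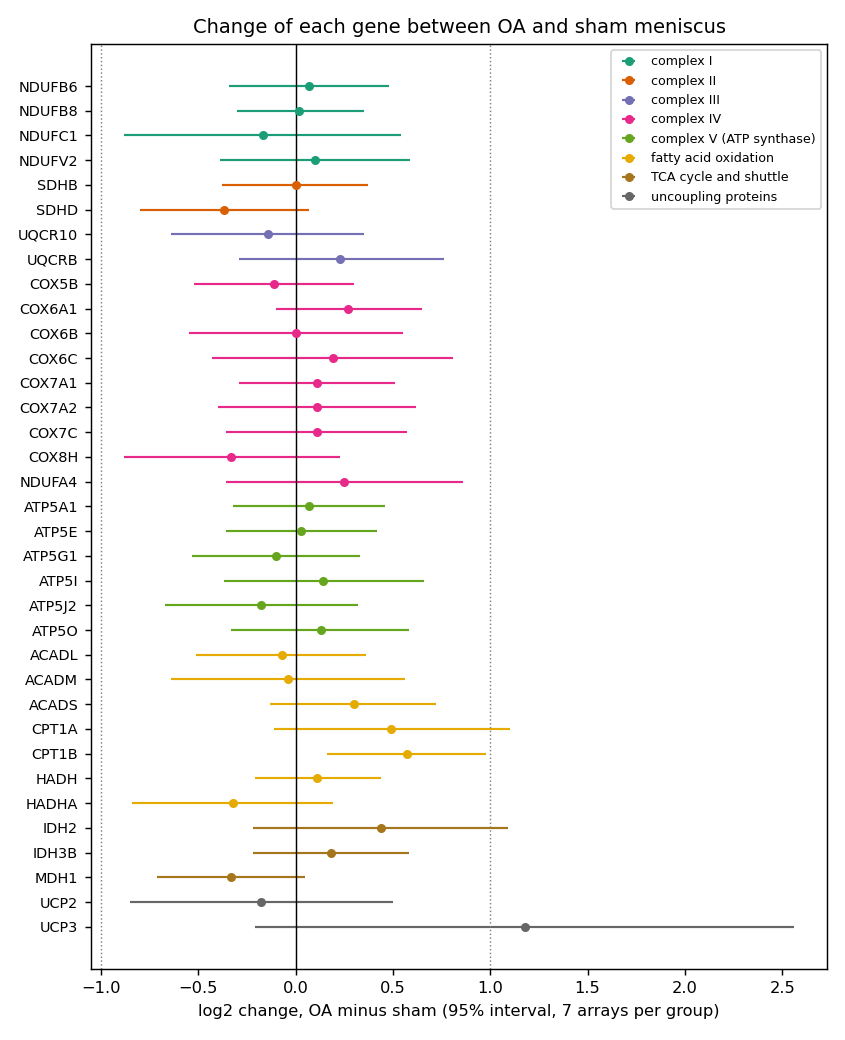
Log2 difference, OA minus sham, of the 35 genes by role (horizontal axis, points), with 95% intervals from the limma fit (bars) and dotted lines at 2-fold. The points lie close to 0 in every complex, none passed the adjusted threshold, and the widest interval is that of UCP3.

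Complex I takes electrons from NADH. The accessory subunits NDUFB6, NDUFB8 and NDUFC1 differed by 0.07 ± 0.19 (SE), 0.02 ± 0.15 and -0.17 ± 0.33. NDUFV2, a core subunit that holds an iron-sulfur cluster, differed by 0.10 ± 0.23 (limma, Benjamini-Hochberg adjusted p = 0.85). In sham, NDUFV2 had a lowest value of 1.98, a median of 2.80 and a highest of 3.25, and in OA these were 2.47, 2.69 and 3.61. NDUFC1 was the most variable of the 4: it ran from 0.70 through a median of 1.79 to 2.60 in sham and from 0.90 through 1.33 to 2.98 in OA. In all 4 genes the OA range covered most of the sham range, and the highest of the 14 values was on OA 4.

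Complex II, succinate dehydrogenase, links the TCA cycle to the respiratory chain. SDHB, its iron-sulfur subunit, ran from 3.15 through a median of 3.36 to 3.60 in sham and from 2.70 through 3.54 to 3.68 in OA. Its difference was 0.00 ± 0.18, with an interval of -0.38 to 0.37, and its SD was 0.15 in sham and 0.39 in OA. The other 6 SDHB probes, all dimmer, had negative differences of -0.62 to -0.18, none past the adjusted threshold, and the mean of all its probes gave -0.28. SDHD, which anchors the enzyme in the inner membrane, ran from 2.21 through 2.69 to 2.93 in sham and from 1.65 through 2.44 to 2.67 in OA. The highest OA value of SDHD thus lay just under the sham median, and 3 of 7 lay below every sham value, at 2.12, 1.77 and 1.65. Those 3 arrays, OA 2, OA 3 and OA 5, are all on slide 4. The SDHD difference was -0.37 ± 0.20 (limma, unadjusted p = 0.092, Benjamini-Hochberg adjusted p = 0.34). By slide, its mean was 2.60 and 2.67 on the sham slides, 2.05 on slide 4 and 2.59 on slide 5.

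Complex III passes electrons from ubiquinol to cytochrome c. Its small subunits UQCR10 and UQCRB differed in sign. UQCR10 ran from 2.96 through a median of 3.91 to 4.05 in sham and from 3.28 through 3.50 to 4.53 in OA, a difference of -0.14 ± 0.24. UQCRB ran from 2.98 through 3.80 to 4.50 in sham and from 3.34 through 4.09 to 4.72 in OA, a difference of 0.23 ± 0.25. The groups overlapped over most of their range for both, and the limma adjusted p (Benjamini-Hochberg) was 0.78 and 0.65.

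Complex IV, cytochrome c oxidase, hands the electrons to oxygen. Its 9 genes had a median difference of 0.11, with 6 above 0 and all 9 intervals within 2-fold. COX6A1, the ubiquitous form of subunit VIa, had the smallest unadjusted p of the 9: it ran from 6.28 through a median of 6.51 to 6.70 in sham and from 6.26 through 6.81 to 7.28 in OA. The 4 OA arrays above every sham array were OA 1 to OA 4, on slides 3 and 4, and OA 5 on slide 4 lay below all sham arrays. The COX6A1 difference was 0.27 ± 0.18 (limma, unadjusted p = 0.14, Benjamini-Hochberg adjusted p = 0.42), and it was -0.02 without slides 3 and 4. Among the other nuclear-encoded subunits, NDUFA4 differed by 0.25 ± 0.29, COX6C by 0.19 ± 0.29, COX7C by 0.11 ± 0.22, COX6B by 0.00 ± 0.26 and COX5B by -0.11 ± 0.20.

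Subunit VIIa has a form typical of heart and skeletal muscle, COX7A1, and a widely expressed form, COX7A2. COX7A1 ran from 2.60 through a median of 2.83 to 3.58 in sham and from 2.65 through 3.01 to 3.64 in OA. COX7A2 ran from 3.22 through 3.97 to 4.25 in sham and from 3.29 through 4.11 to 4.90 in OA. Both differed by 0.11, with an SE of 0.19 and 0.24, and without slides 3 and 4 the differences were -0.08 and -0.48. COX8H, the heart and muscle form of subunit VIII, was near the limit of detection, with a mean signal of 9.74. It was well above background on 7 of 7 sham arrays but on 3 of 7 OA arrays, OA 5, OA 6 and OA 7. It ran from -5.70 through -5.08 to -4.36 in sham and from -6.09 through -5.65 to -4.62 in OA, a difference of -0.33 ± 0.26 (limma, Benjamini-Hochberg adjusted p = 0.52). OA 1 to OA 4, where it was not well above background, have raw 75th percentiles of 225, 202, 190 and 156, against 250 to 491 on the other OA arrays. Dim probes in general lay lower in OA. Of 10 signal bins of all tested probes, the dimmest, which holds COX8H, had a median difference of -0.36 and the brightest 0.09. The COX8H difference turned to 0.32 without slides 3 and 4 and to 0.48 with array brightness as a covariate. It turned to 0.75 with normexp background correction, where it passed (limma, Benjamini-Hochberg adjusted p = 0.0012), so its direction is not settled by these arrays.

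ATP synthase makes ATP from the proton gradient. ATP5A1, the catalytic-head alpha subunit, differed by 0.07 ± 0.19, ATP5E by 0.03 ± 0.18, ATP5G1, 1 of the genes for the membrane ring, by -0.10 ± 0.20, and ATP5I, a small membrane subunit, by 0.14 ± 0.24, which was -0.34 without slides 3 and 4. ATP5J2, another small membrane subunit, ran from 3.66 through a median of 4.64 to 4.77 in sham and from 3.71 through 4.19 to 5.27 in OA, a difference of -0.18 ± 0.23. ATP5O, which belongs to the stalk that joins head and membrane parts, ran from 3.11 through 3.71 to 4.17 in sham and from 3.31 through 3.73 to 4.69 in OA, a difference of 0.13 ± 0.22. The sham and OA ranges overlapped for all 6 genes, with OA 4 above every sham array in each, and all 6 intervals stayed within 2-fold.

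For the respiratory chain and ATP synthase, single arrays stood apart from the rest of their group. OA 4 had the highest of the 14 values for 18 of the 23 genes of complexes I to V (78.3%), while it was the highest array for 109 of the 539 named genes of the same signal range (20.2%). The 5 exceptions were SDHB and COX7A1, highest on OA 1, COX6A1 on OA 2, SDHD on sham 7 and COX8H on sham 4. Sham 4 had the lowest value for 13 of the 23 (56.5%), against 180 of the 539 (33.4%). Relative to each gene's own mean, the 23 genes had a mean of 0.66 on OA 4 and -0.52 on sham 4, and between -0.27 and 0.32 on the other 12 arrays. The median of the 23 genes was 0.76 on OA 4 and -0.66 on sham 4. For the named genes of the same signal range, which include the members within it, the median on OA 4 was 0.16 and on sham 4 was -0.42. OA 4 is the dimmest array, with a 75th percentile of 156 and 67.9% of probes above background, and sham 4 has the largest share of probes above background, 95.2%. The part of brightness in this pattern was not tested. The genes of fatty acid oxidation had array means from -0.27 to 0.19, with 0.05 on OA 4. That mean on OA 4 joins opposite values: ACADM was the highest of the 14 there, and ACADL and HADHA were the lowest.

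**Figure D2:**
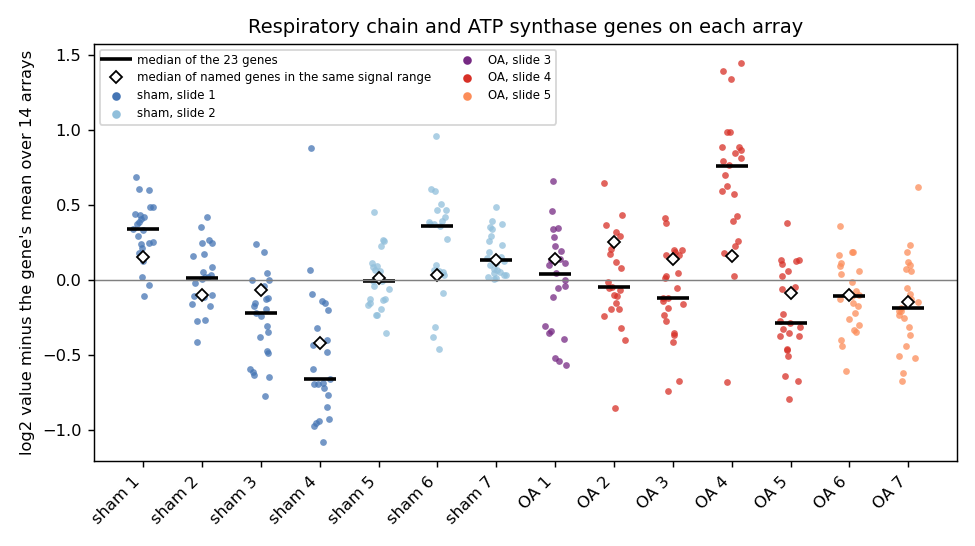
Log2 value minus the gene's own mean over the 14 arrays (vertical axis) for the 23 genes of complexes I to V on each array (points coloured by slide), with their median (bar) and the median of named genes of the same signal range (diamond). The bar stands highest on OA 4 at 0.76, where the diamond is at 0.16, and lowest on sham 4 at -0.66, where the diamond is at -0.42.

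Long-chain fatty acids enter mitochondria through carnitine palmitoyltransferase 1, made by CPT1A (the liver form, expressed widely) and CPT1B (the muscle form). CPT1B had the smallest p of all 35 genes. Its sham values ran from -0.39 through a median of -0.23 to 0.38, and its OA values from 0.11 through 0.39 to 1.04. All 7 OA arrays lay above the sham mean and 4 lay above every sham array, yet the ranges overlapped. The difference was 0.57 ± 0.19, with an interval of 0.16 to 0.98 and a fold change of 1.48 (limma, unadjusted p = 0.0088, Benjamini-Hochberg adjusted p = 0.11). The other 2 CPT1B probes, which were dimmer, had differences of the opposite sign, -0.16 and -0.31, and the mean of all its probes gave 0.03. The difference was 0.30 without slides 3 and 4 and 0.25 with array brightness as a covariate.

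CPT1A ran from 1.64 through a median of 2.34 to 3.44 in sham and from 2.37 through 3.01 to 3.80 in OA. In OA, 6 of 7 arrays lay above the sham mean and 2, OA 6 and OA 7, lay above all sham arrays. The difference was 0.49 ± 0.28, with an interval of -0.11 to 1.1 (limma, Benjamini-Hochberg adjusted p = 0.36). Slides of the same group differed by more than the groups: the CPT1A mean was 2.35 and 3.0 on the sham slides, and 2.87 and 3.67 on slides 4 and 5. Of the 6 CPT1A probes, 2 had positive and 4 negative differences, between -0.52 and 0.53, and their mean gave -0.05. Without slides 3 and 4 the CPT1A difference was 1.05 (limma, unadjusted p = 0.030, Benjamini-Hochberg adjusted p = 0.34).

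Inside the mitochondrion, acyl-CoA dehydrogenases start each round of beta-oxidation, and hydroxyacyl-CoA dehydrogenases carry out a later step. ACADS, for short chains, differed by 0.30 ± 0.20, with 3 of 7 OA arrays above every sham array (limma, Benjamini-Hochberg adjusted p = 0.44), and by -0.06 without slides 3 and 4. ACADM, for medium chains, differed by -0.04 ± 0.28, and ACADL, for long chains, by -0.07 ± 0.21. HADH, for short chains, differed by 0.11 ± 0.16, and HADHA, the alpha subunit of the trifunctional protein for long chains, by -0.32 ± 0.24. The differences were of both signs and none passed.

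Among the dehydrogenases, MDH1 is the cytosolic malate dehydrogenase of the malate-aspartate shuttle, IDH2 the NADP-dependent mitochondrial isocitrate dehydrogenase and IDH3B a subunit of the NAD-dependent enzyme of the TCA cycle. MDH1 ran from 0.65 through a median of 0.90 to 1.41 in sham and from 0.38 through 0.62 to 1.36 in OA. In OA, 5 of 7 arrays lay below every sham array, 1 of them by less than the precision printed, and OA 4 lay near the top of the sham range. The MDH1 difference was -0.33 ± 0.18, with an interval of -0.71 to 0.05 (limma, unadjusted p = 0.087, Benjamini-Hochberg adjusted p = 0.33), and its other probe gave -0.28. With normexp background correction MDH1 passed (limma, Benjamini-Hochberg adjusted p = 0.034), among 54 named genes called lower there.

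IDH2 ran from 3.14 through a median of 4.30 to 4.69 in sham and from 3.81 through 4.62 to 5.61 in OA. The 3 OA arrays above every sham array, at 5.61, 5.07 and 5.20, were on slide 4. The IDH2 difference was 0.44 ± 0.31 (limma, Benjamini-Hochberg adjusted p = 0.46). Its mean was 4.97 on slide 4 and 3.94 on slide 5, so the means of these OA slides lay on either side of the sham slide means, 4.06 and 4.37. Without slides 3 and 4 the IDH2 difference was -0.25. The 2 other IDH2 probes had negative differences, and the mean of all its probes gave -0.18. IDH3B differed by 0.18 ± 0.19.

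**Figure D3:**
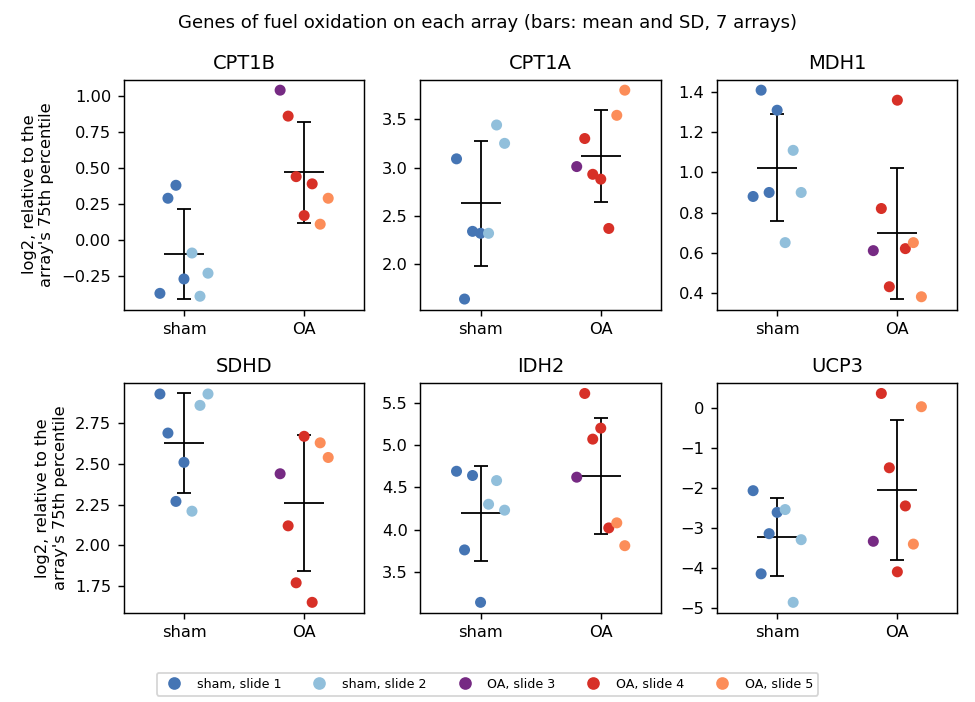
Log2 signal relative to the array's 75th percentile for 6 genes, each point 1 array coloured by slide, with the mean and SD of 7 arrays per group. Sham and OA overlap in each panel; 4 OA arrays of CPT1B stand above all sham arrays, and 3 arrays of slide 4 are the lowest of the 14 for SDHD and 3 the highest for IDH2.

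Uncoupling protein 3 is best known from skeletal muscle and brown fat, and uncoupling protein 2 is expressed in many tissues. UCP2 ran from 0.32 through a median of 0.91 to 1.64 in sham and from -0.18 through 0.54 to 1.87 in OA, a difference of -0.18 ± 0.32 (limma, Benjamini-Hochberg adjusted p = 0.80). Without slides 3 and 4 the UCP2 difference was -0.92 (limma, unadjusted p = 0.025, Benjamini-Hochberg adjusted p = 0.32), and it was -0.84 with array brightness as a covariate. UCP3 had the largest difference of the 35 genes, 1.18 ± 0.65, and also the widest interval, -0.21 to 2.56 (limma, unadjusted p = 0.091, Benjamini-Hochberg adjusted p = 0.34). It ran from -4.85 through -3.14 to -2.07 in sham and from -4.09 through -2.45 to 0.35 in OA. The OA group was split: OA 2, OA 7 and OA 3, at 0.35, 0.02 and -1.50, lay above every sham array, and the other 4 lay inside the sham range. The second UCP3 probe, with a signal of 16.8, differed by 0.29. On that probe OA 3 was highest at -3.52. OA 2 and OA 7, at -4.01 and -4.22, did not stand apart from OA 6 at -4.01 and OA 1 at -4.2. With normexp background correction UCP3 passed (limma, Benjamini-Hochberg adjusted p = 0.0088), among 728 named genes called higher there.

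Some genes of fat cells were high on OA 2 and OA 7, the arrays with the highest values of the brightest UCP3 probe. The 11 tested genes of a list of adipocyte markers, 8 of them above background on all 14 arrays, had a mean deviation of 0.99 on OA 2 and 0.85 on OA 7, and between -0.27 and 0.05 on the other 12 arrays. LIPE, which encodes hormone-sensitive lipase and was singled out after its values were seen, stood at 4.07 on OA 2, 3.89 on OA 7 and 3.0 on OA 3. On the other 11 arrays it lay between 0.59 and 1.90. ADIPOQ, which encodes adiponectin and is a defining gene of fat cells, was highest on OA 7 at -0.91. On OA 2 it was -1.81, within the -2.97 to -1.24 of the other 12 arrays. Between the groups, 1 of the 11 adipocyte genes passed the test and was higher in OA, LEP (leptin), at 0.74 ± 0.16 (limma, Benjamini-Hochberg adjusted p = 0.020). With slide as a random block the LEP adjusted p was 0.17, and the mean of its probes gave 0.20. The list's median was 0.24. In the skeletal muscle list, with 15 tested genes and 10 above background on all arrays, the array mean ran from -0.28 to 0.36 in sham and from -0.48 to 0.39 in OA. TNNI1, slow skeletal troponin I, passed at 0.71 (limma, Benjamini-Hochberg adjusted p = 0.041). MYH7 had the next smallest p and did not pass, at 0.97 (limma, Benjamini-Hochberg adjusted p = 0.075). Of the 15 genes, 6 were above 0, and the list's median was -0.16. The TNNI1 adjusted p was 0.21 with slide as a random block, and without slides 3 and 4 its difference was 0.44 (adjusted p = 0.54). The part of fat or muscle RNA in the UCP3, CPT1B and COX8H values was not tested.

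**Figure D4:**
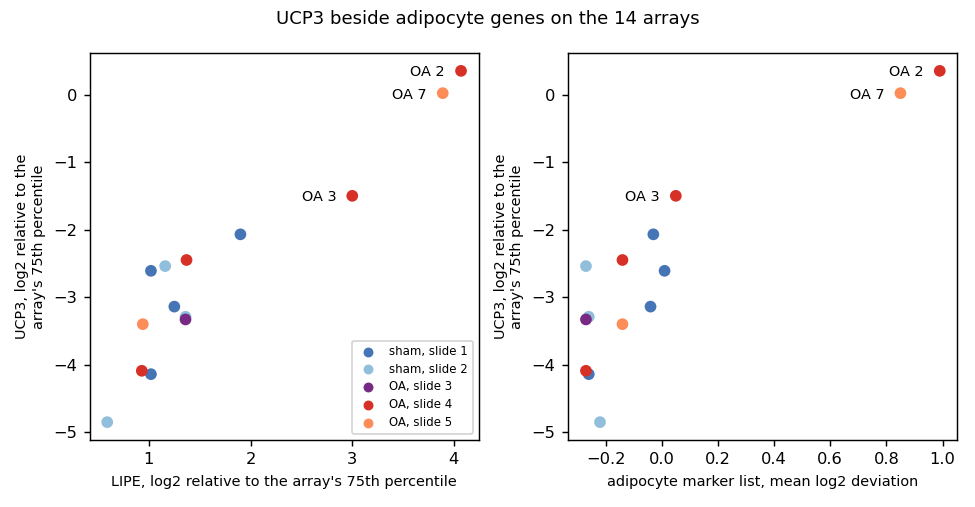
The brightest UCP3 probe on each of the 14 arrays (vertical axis, log2 relative to the array's 75th percentile). It is set against LIPE on the same scale and against the mean log2 deviation of the adipocyte list, coloured by slide. OA 2 and OA 7 are high in all 3 measures, OA 3 is high for UCP3 and LIPE with an adipocyte mean of 0.05, and sham arrays stay at or below -2.07 for UCP3.

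Probes of the same gene often disagreed, which limits what the brightest probe says of a gene. Of the 35 genes, 31 had more than 1 probe, and 56 of the 97 other tested probes had the sign of the brightest. Probes of both signs occurred in 16 genes. ATP5A1 had 6 positive and 8 negative probes between -0.57 and 0.30. In contrast, all 7 UQCRB probes were positive (0.09 to 0.35), all 7 of SDHB were negative (-0.62 to 0 at the precision printed), all 5 of COX7A2 were positive (0.10 to 0.26), all 7 of ACADM were negative (-0.42 to -0.04) and all 3 of HADHA were negative (-0.68 to -0.32). Over the 132 tested probes of the 35 genes, 58 differences were positive and 74 negative, with a median of -0.04.

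Of these 132 probes, 1 passed the test, against 1450 of the 38818 probes tested (3.74%). It was the dimmer of the 2 probes for ATP5E, the epsilon subunit of ATP synthase. It was singled out after its values were seen. Its 7 sham values were -0.13, -0.04, -0.26, 0.25, -0.26, -0.36 and -0.11, and its 7 OA values were 0.83, 0.87, 0.69, 1.07, 0.63, 0.53 and 0.88. The groups did not overlap, which held for 672 of all probes tested (1.73%). The difference was 0.92 ± 0.15, with an interval of 0.61 to 1.23 (limma, Benjamini-Hochberg adjusted p = 0.0061). The brightest ATP5E probe, at a mean signal of 22200 against 460, differed by 0.03 ± 0.18 with an interval of -0.36 to 0.42, so the probes gave different answers for the same gene. With slide as a random block the adjusted p of the dimmer probe was 0.075, and without slides 3 and 4 its difference was 0.84 with an adjusted p of 0.14 (limma, Benjamini-Hochberg).

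**Figure D5:**
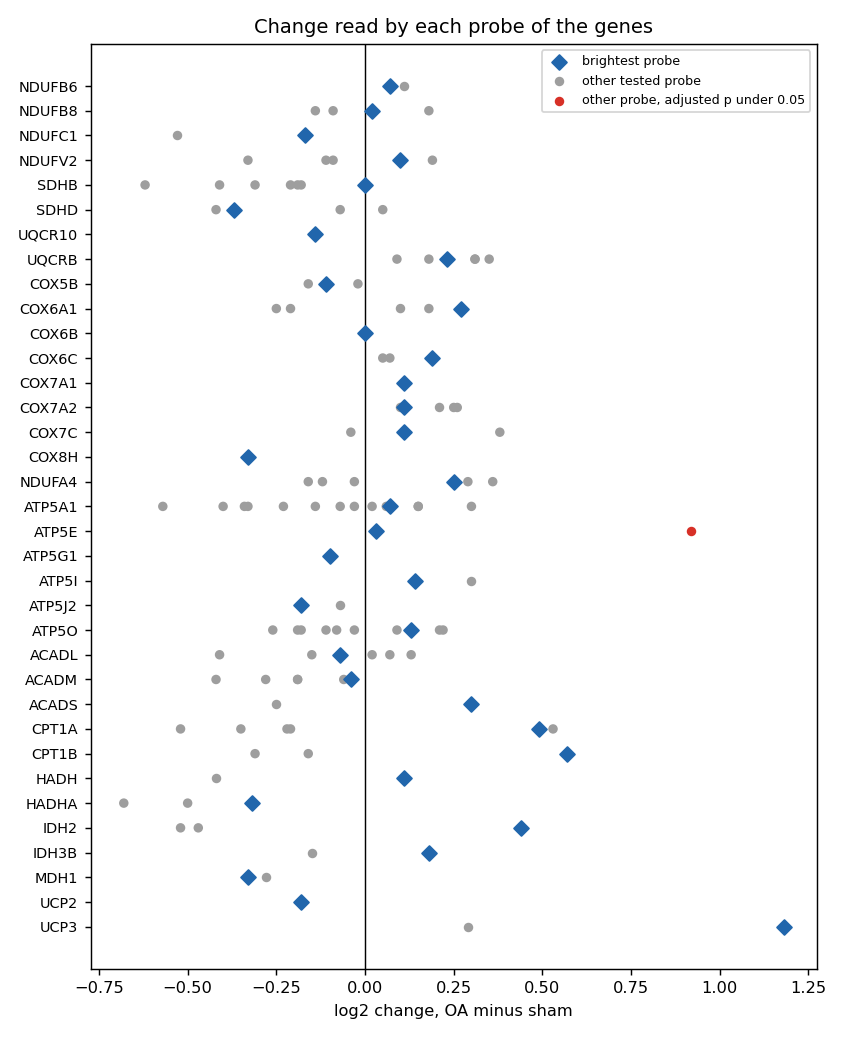
Log2 difference, OA minus sham, of every tested probe of the 35 genes (points, by gene), with the brightest probe of each gene marked. Probes fall on both sides of 0 in 16 genes, and the dimmer ATP5E probe at 0.92 is the only one past the adjusted threshold.

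Genes around these pathways were taken from 6 lists outside the 35. None of the lists had a gene past the threshold in either direction (limma, Benjamini-Hochberg). Of all named genes tested, 2.97% were higher and 0.266% lower. At those shares, lists of 4 to 16 tested genes are too short for a count of 0 to set them apart. In the pyruvate dehydrogenase complex and its kinases, which admit pyruvate to the TCA cycle, 4 genes were tested, 1 of them above 0, with a list median of -0.04. DLAT, the acetyltransferase of the complex, differed by -0.22 ± 0.15, and the kinase PDK4 by 0.30 ± 0.82. In the rest of the TCA cycle 5 genes were tested, 3 above 0, with a list median of 0.01. PC, which encodes pyruvate carboxylase, differed by 0.19 ± 0.33.

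Outside the 35, 16 genes of fatty acid uptake, activation and oxidation were tested, 9 above 0, with a median of 0.09. ACSL1, which activates long-chain fatty acids, differed by -0.58 ± 0.22, with all 7 OA arrays below the sham mean (limma, unadjusted p = 0.016, Benjamini-Hochberg adjusted p = 0.15). PNPLA2, which encodes adipose triglyceride lipase, differed by -0.83 ± 0.33 at a signal of 9.34 (limma, adjusted p = 0.17). Of 7 electron carriers, metabolite carriers and channels, 2 were above 0 and the median was -0.13. VDAC2, a channel of the outer membrane, differed by -0.46 ± 0.18 (limma, adjusted p = 0.17), and CKMT2, mitochondrial creatine kinase of muscle, by -0.35 ± 0.25.

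Of 11 regulators of mitochondrial number and fuel use, 3 were above 0, with a median of -0.11. PPARA, a receptor that induces genes of fatty acid oxidation, differed by 0.76 ± 0.24, with 6 of 7 OA arrays above every sham array (limma, unadjusted p = 0.0051, Benjamini-Hochberg adjusted p = 0.084). Its signal was 9.25 and it was well above background on 9 of 14 arrays. SIRT3, the mitochondrial deacetylase, differed by -0.69 ± 0.28 (limma, adjusted p = 0.17). Of 7 mitochondrial and cellular antioxidant enzymes, 3 were above 0, with a median of -0.03. CAT (catalase) differed by 0.31 ± 0.32 and GPX4, which reduces lipid peroxides, by -0.19 ± 0.22.

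Markers of other cells were also read. None of the 6 macrophage genes, 3 endothelial genes or 5 meniscus genes tested passed, with list medians of 0.17, -0.31 and 0.24. Of 2 erythroid genes 1 passed, KLF1, which directs red cell formation, at 1.18 ± 0.32 (limma, Benjamini-Hochberg adjusted p = 0.048), and the array mean of these 2 genes ran from -0.97 to 0.35 in sham and from -0.01 to 0.89 in OA. KLF1 differed between the sham slides, from -4.60 to -3.95 on slide 1 and from -3.12 to -2.60 on slide 2, where it overlapped the OA range of -3.03 to -2.22. Its adjusted p was 0.20 with slide as a random block (limma, Benjamini-Hochberg).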

How the data were processed

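The members, gene lists and alternatives were chosen with earlier results of these data known. Per the file headers, the deposited intensity values came from Agilent Feature Extraction 11.0.1.1, with background subtracted and no normalization between arrays. The authors' series table of log2 values served only as an alternative; its making is not stated in the sources used here.

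Each array had 45220 spots, 1417 of them controls, and 43603 distinct other probes. Of these, 5779 carried a RefSeq accession and 5461 matched the RefSeq gene table of Sscrofa11.1, giving 2389 genes; other probes stayed unnamed. No coordinates are given, since no source used here states the build behind the probes, and promoter and protein sequences were not used here.

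The log2 processed signal, less its 75th percentile on that array, was compared, OA minus sham, with limma 3.58.1 (R 4.3.3; lmFit and eBayes, two-sided) and Benjamini-Hochberg adjustment over the 38818 probes that were well above background on 7 or more of 14 arrays. Spots marked as non-uniform or population outliers were set missing (82 in all) and no spot was saturated. Errors are SE and intervals 95%, both from that fit; the number of arrays limits the precision. The procedure was tested on simulated data with independent noise and no slide or brightness differences, so that test does not cover such differences.

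All members are named. Values by group are given for the 2 smallest p of each role and for isoform pairs, and for each other list the 2 smallest p; 1 gene this rule selects is not reported here. Alternatives were quantile and median scaling, normexp, the authors' table, other probe filters, marked spots kept, array weights, other variance models, blocks for replicate number, slide or scan day, brightness as a covariate, slides or single arrays left out, and the mean of a gene's probes. Normexp used the median in place of the planned mean signal, and its offset was 50.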

Additional observations from a re-analysis of the deposited data

Results flagged for a closer look

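Each of the 35 genes was examined in the 7 sham and the 7 OA arrays for a single array far from the others (gap to the nearest array over the group's range above 0.568, Dixon's 95% critical value for 7). Of 70 such groups 10 held one, where chance alone gives about 1 in 20, and the genes are not independent. In 8 of them the array was OA 4. NDUFB6 was 4.08 there with the next OA array at 3.49, NDUFC1 2.98 against 1.70, NDUFV2 3.61 against 2.86, NDUFA4 5.06 against 3.73, UQCR10 4.53 against 3.54, COX6C 5.90 against 4.69, ATP5A1 5.94 against 5.16 and ATP5O 4.69 against 3.81. In the other 2 it was sham 4, with COX6B at 2.92 against 3.89 and ATP5J2 at 3.66 against 4.34 for the next lowest sham array. All values are log2 signals relative to the array's 75th percentile.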

How the results depend on the processing

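Under 29 alternatives, 14 of them leaving out 1 array, no member passed the threshold except with normexp background correction, chosen in place of the scanner's own background subtraction. There 2 members were called higher, COX8H and UCP3, and 1 lower, MDH1, while 728 named genes were called higher and 54 lower and the median of all probes was 0.33 against -0.05. The cause was not tested. Of the 35 members, 12 kept their sign under every alternative run: NDUFC1, SDHD, UQCR10, UQCRB, COX5B, ATP5G1, ATP5J2, CPT1B, HADHA, MDH1, UCP2 and UCP3. The members' median of 0.07 was -0.16 with array brightness as a covariate.

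Named genes called, 67 higher and 6 lower, moved more. The lower count was 16 with quantile normalization, 20 with median scaling, 24 with the authors' table, 17 with array weights and 1 with the filter on all 14 arrays. It was 0 higher and 0 lower with brightness as a covariate, 1 and 0 with slide as a random block, 6 and 0 with scan day, and 3 and 3 without slides 3 and 4. With the mean of all probes 36 were higher. Leaving out 1 array gave 36 to 73 higher and 3 to 46 lower, with 36 without sham 1 and 46 without OA 1. No member was called in these fits.

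With the replicate number as a block, 19 named genes were higher and 1 lower and no member passed. Same-numbered arrays correlated at -0.19 to 0.27 in their deviations from the group means, and none of the 7 numbers correlated best within itself. The check thus showed no pairing by number in these values. It cannot tell whether same-numbered arrays share anything else, and the labels do not say.

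With quantile normalization the log2 differences that changed sign were NDUFB6 -0.02, NDUFB8 -0.07, ATP5A1 -0.01 and ATP5E -0.05. With median scaling the log2 differences that changed sign were SDHB 0.01 and COX6B 0.01. With normexp the log2 differences that changed sign were NDUFB6 -0.13, NDUFB8 -0.11, NDUFV2 -0.05, COX6C 0.00, COX7A1 -0.05, COX7C -0.10, COX8H 0.75, ATP5A1 -0.07, ATP5E -0.11, ATP5O -0.05 and HADH -0.13. With the authors' log2 table the log2 differences that changed sign were NDUFB6 -0.02, NDUFB8 -0.07, ATP5A1 -0.01 and ATP5E -0.05. With array weights the log2 differences that changed sign were NDUFB6 -0.05, COX7A2 -0.11, ATP5A1 -0.06, ATP5E -0.13, ATP5I -0.17 and ACADL 0.05. With slide as a random block the log2 differences that changed sign were SDHB 0.00. With scan day as a random block the log2 differences that changed sign were SDHB 0.01 and COX6B 0.02. Without slides 3 and 4 the log2 differences that changed sign were NDUFB6 -0.03, NDUFB8 -0.12, COX6A1 -0.02, COX7A1 -0.08, COX7A2 -0.48, COX8H 0.32, ATP5A1 -0.08, ATP5I -0.34, ACADL 0.21, ACADS -0.06, HADH -0.03, IDH2 -0.25 and IDH3B -0.08. With array brightness as a covariate the log2 differences that changed sign were NDUFB6 -0.12, NDUFB8 -0.25, NDUFV2 -0.10, NDUFA4 -0.03, COX6A1 -0.15, COX6C -0.19, COX7A2 -0.71, COX8H 0.48, ATP5A1 -0.20, ATP5E -0.02, ATP5I -0.46, ATP5O -0.16, ACADL 0.32, ACADS -0.10, HADH -0.11, IDH2 -0.43 and IDH3B -0.08. With the mean of all probes of a gene the log2 differences that changed sign were NDUFB8 -0.01, NDUFV2 -0.05, COX6B 0.00, ATP5A1 -0.10, ATP5O -0.02, CPT1A -0.05, HADH -0.15 and IDH2 -0.18. When each array was left out in turn, the ranges with a change of sign were COX6B -0.18 to 0.11, ACADM -0.23 to 0.05, NDUFB8 -0.04 to 0.08, SDHB -0.06 to 0.10, ATP5E -0.04 to 0.12, NDUFB6 -0.04 to 0.14, NDUFV2 -0.04 to 0.19, COX7C -0.03 to 0.18, ATP5A1 -0.06 to 0.12, ATP5I -0.01 to 0.26, COX6C -0.03 to 0.31, COX7A2 -0.04 to 0.23, ATP5O -0.03 to 0.21 and ACADL -0.19 to 0.00. The cause was not tested. The UCP2 range, -0.35 to 0.00, ended at 0 at the precision printed, with no change of sign.

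The dimmer ATP5E probe, with the same alternatives chosen after seeing the data, ranged from 0.74 to 0.98 and passed in 25 of 28; it missed the threshold at 0.92 with slide as a random block, at 0.84 without slides 3 and 4, and at 0.80 with brightness as a covariate. The marker genes LEP, TNNI1 and KLF1, with the alternatives chosen after seeing the data, passed in 23, 13 and 11 of 29.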

Other observations

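OA 7 held the highest of the 14 values of several genes of fatty acid use. PDK4, the kinase that turns pyruvate dehydrogenase off, was 5.34 there and between -1.15 and 2.61 on the other 13 arrays. CD36, a fatty acid transporter, was 4.45 on OA 7 and between -1.02 and 2.96 elsewhere, and CPT1A was 3.80 there against at most 3.54 elsewhere. FABP4, the fatty acid binding protein of fat cells and macrophages, was 4.54 on OA 7 and 4.55 on OA 2. These genes were singled out after their values were seen, and this is a description of single arrays.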
